A study of Mus musculus with 3 samples.

Results

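The genes described here are 10 markers of alveolar type 1 (AT1) cells, namely Ager, Hopx, Pdpn, Aqp5, Spock2, Cav1, Clic5, Akap5, Emp2 and Vegfa, read in sorted alveolar type 2 (AT2) cells of mice exposed to air, to continuous cigarette smoke (CS) or to intermittent CS. They were taken by gene symbol from the 19505 genes that carried a symbol on the array, and all 10 were found, each with 1 transcript cluster, which is the group of probes standing for a gene. The AT2 cells came from female Sftpc/GFP mice on a mixed CBA/Ca and C57BL6J background, aged 9 to 11 weeks, in which the Sftpc gene drives GFP strongly in AT2 cells and weakly in some cells of the terminal bronchioles and the bronchioalveolar duct junction. All 3 groups carried this transgene. Control mice breathed air over the same period, and both CS groups received nasal mainstream smoke for 60 minutes a day on 5 days of each smoke week, in 3 weeks of a 5-week schedule. The 3 smoke weeks of the continuous group came one after another at the end, while those of the intermittent group were separated by weeks of air, and mice were killed 24 h after the last smoke. EpCAM-high and GFP-high cells of 3 mice per group were pooled, and 100 ng of their RNA went onto 1 array. With 1 pooled sample per exposure there was no replicate, so the differences below have neither an error nor a p-value, and the small number of arrays limits what they can show.

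AT1 cells are the thin, flat cells that cover most of the gas exchange surface, and AT2 cells are the cuboidal cells that make surfactant. AT2 cells also act as progenitors: they can lose surfactant genes, spread out and acquire AT1 genes after injury. AT1 markers in sorted AT2 cells can therefore come from AT1 cells or fragments carried into the gate, or from AT2 cells that express AT1 genes. These cannot be told apart with RNA from a pool of cells, and neither can fewer cells of a type and less RNA per cell.

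The members have different roles. Ager encodes RAGE, a receptor that binds S100 proteins and HMGB1 and sits on the basal membrane of AT1 cells. Hopx is a small homeodomain protein without DNA binding of its own. Pdpn (podoplanin) is a mucin-like surface protein, Aqp5 a water channel of the apical membrane, and Cav1 the coat protein of caveolae. Clic5 links the membrane to the actin cytoskeleton, Akap5 anchors protein kinase A, Emp2 is a tetraspan membrane protein, Spock2 a secreted proteoglycan of the testican family, and Vegfa the growth factor that maintains the capillary endothelium. Several are not confined to AT1 cells in the lung: Cav1 and Clic5 are also expressed by endothelial cells, and Pdpn by lymphatic endothelium, mesothelium and fibroblasts.

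The 250 bases before the transcription start are printed for Spock2 and Pdpn, which had the widest ranges over the 3 arrays, and, to set beside them, for Aqp5 and Emp2, the 2 members whose value with intermittent CS was not below that with continuous CS. They are RefSeq sequences of the assembly GRCm38.p6, 5′ to 3′ on the strand of the gene, at chr10:60106007-60106256 (plus strand) for Spock2, chr4:143299565-143299814 (minus) for Pdpn, chr15:99590778-99591027 (plus) for Aqp5 and chr16:10313969-10314218 (minus) for Emp2. Capitals mark matches on either strand to ACGTG, the core of the hypoxia response element, and to GGGCGG, a box read by SP and KLF factors.
Spock2: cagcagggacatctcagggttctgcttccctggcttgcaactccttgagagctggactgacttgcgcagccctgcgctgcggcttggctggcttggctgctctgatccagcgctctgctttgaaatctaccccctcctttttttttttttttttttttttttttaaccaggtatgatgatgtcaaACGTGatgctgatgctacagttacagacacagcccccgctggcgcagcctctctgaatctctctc
Pdpn: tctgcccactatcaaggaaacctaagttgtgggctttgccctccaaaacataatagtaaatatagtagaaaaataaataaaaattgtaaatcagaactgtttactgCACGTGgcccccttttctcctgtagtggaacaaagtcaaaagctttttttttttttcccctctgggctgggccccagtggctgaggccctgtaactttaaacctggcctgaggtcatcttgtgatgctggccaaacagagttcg
Aqp5: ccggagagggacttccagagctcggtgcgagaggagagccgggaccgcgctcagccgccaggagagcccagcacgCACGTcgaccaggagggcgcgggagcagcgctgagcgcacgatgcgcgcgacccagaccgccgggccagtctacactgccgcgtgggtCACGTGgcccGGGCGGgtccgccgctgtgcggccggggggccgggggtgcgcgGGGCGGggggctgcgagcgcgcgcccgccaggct
Emp2: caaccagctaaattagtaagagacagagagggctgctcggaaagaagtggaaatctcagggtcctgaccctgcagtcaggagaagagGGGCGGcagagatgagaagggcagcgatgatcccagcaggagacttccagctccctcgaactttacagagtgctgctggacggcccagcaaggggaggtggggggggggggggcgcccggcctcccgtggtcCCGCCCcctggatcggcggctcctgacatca

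These 4 promoters differ in base composition. The share of G and C was 51.2% for Spock2 and 43.2% for Pdpn, against 62.8% for Emp2 and 78.4% for Aqp5, and the number of CG pairs was 7, 2, 11 and 38 in that order. The median over all 32851 promoters of the same length was 52.4% with 6 CG pairs. ACGTG ended 61 bases before the start in Spock2 and 139 bases before it in Pdpn, where the palindrome CACGTG matches on both strands. Aqp5 held ACGTG at 171 and, again as CACGTG, at 82 bases, with GGGCGG at 72 and 29 bases, while Emp2 held GGGCGG at 158 and 26 bases. Over the 13 listed promoters of the 10 members, ACGTG was present in 7 (of Aqp5, Cav1, Hopx, Pdpn, Spock2 and Vegfa) and in 16.6% of all promoters, and GGGCGG in 7 (of Akap5, Aqp5, Cav1, Clic5, Emp2 and Vegfa) and in 32.7%. The TEAD letters GGAATG and the NKX2-1 letters CAAGTG, read by factors of the AT1 and lung epithelial programs, were in 12.6% and 11.6% of all promoters and in none of these windows. Presence or absence of such short matches is a description of the sequence only.

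The values are log2 values as deposited, 1 per cluster and array, for 22206 clusters. Each array was read against 1414 clusters of olfactory and vomeronasal receptors, genes of the nose, whose 95th percentile (5.14 to 5.19) served as the background level. The standard deviation of the log2 difference over these receptor clusters was 0.23 between the CS arrays and 0.25 between continuous CS and air. The AT2 genes Sftpc and Lamp3, which encode a surfactant protein and a lamellar body protein, were at 19.93 and 19.85 on each array. The value 19.93 is the ceiling of all 3 arrays, so Sftpc could not have read higher on any of them. No AT1 marker was at the ceiling. All 10 AT1 markers also lay above the background on all 3 arrays, by 1.63 (Cav1, air) to 13.1 (Ager, continuous CS) on the log2 scale. The list was chosen with earlier results of these arrays known, so its counts are descriptions. The value of one cluster is not comparable with that of another as an amount of RNA.

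The AT1 markers split into 2 sets. Spock2, Pdpn, Hopx, Cav1, Akap5 and Clic5 were highest on the continuous CS array and were all lower with intermittent CS, by 1.51-fold to 2.91-fold, whereas Ager, Aqp5, Emp2 and Vegfa lay within 1.2-fold of each other on the CS arrays. The median log2 difference of the 10, intermittent minus continuous CS, was -0.60, beside 0.00 over all clusters. At the 2-fold threshold used in the study, 1 member (Spock2) was lower and 0 were higher, beside 0.635% and 0.117% of all clusters. At 1.5-fold, 6 members were lower, beside 2.67% of all clusters and 3.59% of those above the background on either CS array. By any amount, 8 of the 10 were lower, beside 36.4% of all clusters, or 50.2% of the 16104 clusters that were not exactly equal on both CS arrays. The 2 that were higher, Aqp5 and Emp2, were so by 0.07 and 0.03 on the log2 scale, and Emp2 was lower by quantile normalization.

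**Figure D1:**
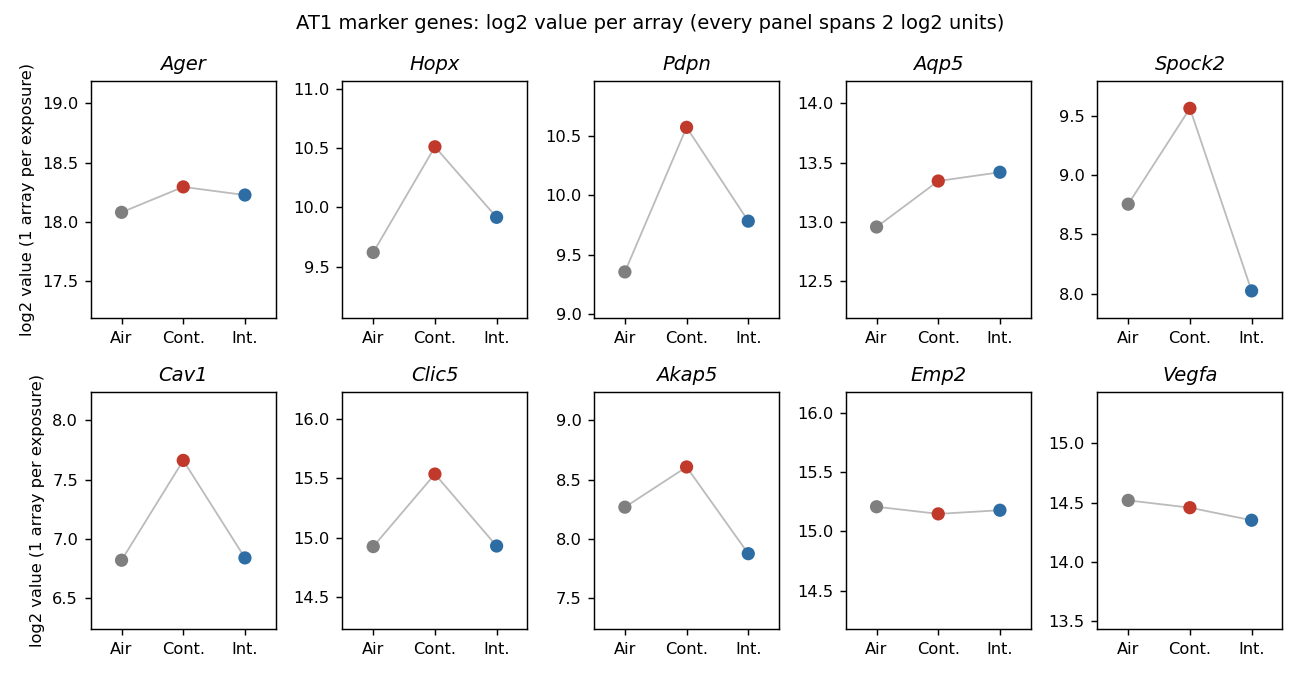
Log2 value of each AT1 marker gene on the air, continuous CS and intermittent CS arrays (1 array per exposure, no error; every panel spans 2 log2 units). Spock2, Pdpn, Hopx, Cav1, Akap5 and Clic5 peak with continuous CS, while Emp2 stays between 15.15 and 15.21.

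Spock2 was the member that differed most. Its log2 value read 8.75 on the air array, 9.56 on the continuous and 8.02 on the intermittent CS array. The value with air thus was the middle one. Intermittent CS was 2.91-fold below continuous CS, and 19 of all 22206 clusters, Spock2 included, lay at least as low in this comparison. Against air, Spock2 was 1.75-fold higher with continuous CS and 1.66-fold lower with intermittent CS. The other testicans, Spock1 and Spock3, were below the background on every array (4.49 to 4.64). The related matrix protein gene Sparc differed by 1.09-fold between the CS arrays.

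The surface protein and cytoskeletal genes had a similar shape without passing 2-fold between the CS arrays. Pdpn was at 9.36 on the air array, 10.57 on the continuous and 9.78 on the intermittent CS array. It was the only member at least 2-fold apart between continuous CS and air (2.33-fold higher), and intermittent CS lay 1.73-fold below continuous CS. Cav1 was at 6.82, 7.66 and 6.84 in the same order, and Clic5 at 14.92, 15.54 and 14.93. For both, the intermittent CS array was level with air (1.01-fold and 1.00-fold), and the continuous CS array stood above both by 1.77-fold to 1.79-fold for Cav1 and by 1.52-fold to 1.53-fold for Clic5.

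The caveolar and CLIC relatives did not all share this shape. Cavin2, a caveolar coat protein, was at 8.38 on the air array, 9.65 on the continuous and 8.77 on the intermittent CS array, a gap of 1.84-fold between the smoke exposures. Cav2, the partner of Cav1, and Cavin1, which caveolae require, were 1.05-fold lower each. The 8 measured genes of caveolae other than Cav1 had a median log2 difference of -0.07, intermittent minus continuous CS, and all 8 lay within 2-fold. Of the 4 other CLIC genes, Clic6 was 1.38-fold lower and Clic4 1.22-fold higher.

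Hopx, the one nuclear protein of the list, was at 9.62 on the air array, 10.51 on the continuous and 9.91 on the intermittent CS array. Continuous CS lay 1.85-fold above air, and intermittent CS 1.51-fold below continuous CS, just past the lower threshold of 1.5-fold. Akap5 was at 8.27, 8.61 and 7.88. Like Spock2 it was lowest with intermittent CS, 1.66-fold below continuous CS and 1.31-fold below air. Its partners in protein kinase A and calcineurin signaling were spread around 0 between the CS arrays: of 10 measured genes 5 were higher and 5 lower, all within 2-fold, and the median was -0.02.

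Ager, the receptor gene most used to define AT1 cells in mice, was nearly level. Its log2 value read 18.08 on the air array, 18.30 on the continuous and 18.23 on the intermittent CS array, so that intermittent CS was 1.05-fold below continuous CS and the widest gap, between continuous CS and air, was 1.16-fold. These gaps are smaller than the standard deviation of the receptor clusters. Of the 5 measured genes for ligands of RAGE, the neutrophil gene S100a8 was at 7.64, 7.79 and 6.04 in the same order, 3.35-fold lower on the intermittent CS array than on the continuous one. Hmgb1, the nuclear protein released by damaged cells, was at 15.73, 16.07 and 16.33.

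Aqp5 was the only member that was highest with intermittent CS, at 12.96 on the air array, 13.35 on the continuous and 13.42 on the intermittent CS array. Both CS arrays were above air, by 1.31-fold and 1.38-fold. Its relative Aqp1, a water channel of endothelium and red cells, had another order. It was at 9.03 with air, 1.96-fold higher than that with continuous CS and lowest with intermittent CS at 8.54, which is 2.76-fold below continuous CS. Of the 11 measured aquaporins other than Aqp5, Aqp1 alone passed 2-fold between the smoke exposures, and 9 lay below the background on all arrays.

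Emp2 was at 15.21 on the air array, 15.15 on the continuous and 15.18 on the intermittent CS array, a range of 1.04-fold and the narrowest of the 10. Each of the 3 other genes of its family was lower on the intermittent CS array than on the continuous one. Emp3 was at 13.10, 13.33 and 12.22 (2.15-fold lower), Emp1 was 1.91-fold lower and Pmp22 1.65-fold lower. Vegfa was at 14.52, 14.46 and 14.35 in the same order of arrays, a range of 1.12-fold. Its receptor gene Kdr, which endothelial cells express, was at 9.60, 10.55 and 9.58. The 8 measured VEGF relatives and receptors, Kdr included, were all within 2-fold, with a median log2 difference of -0.01 for intermittent minus continuous CS.

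**Figure D2:**
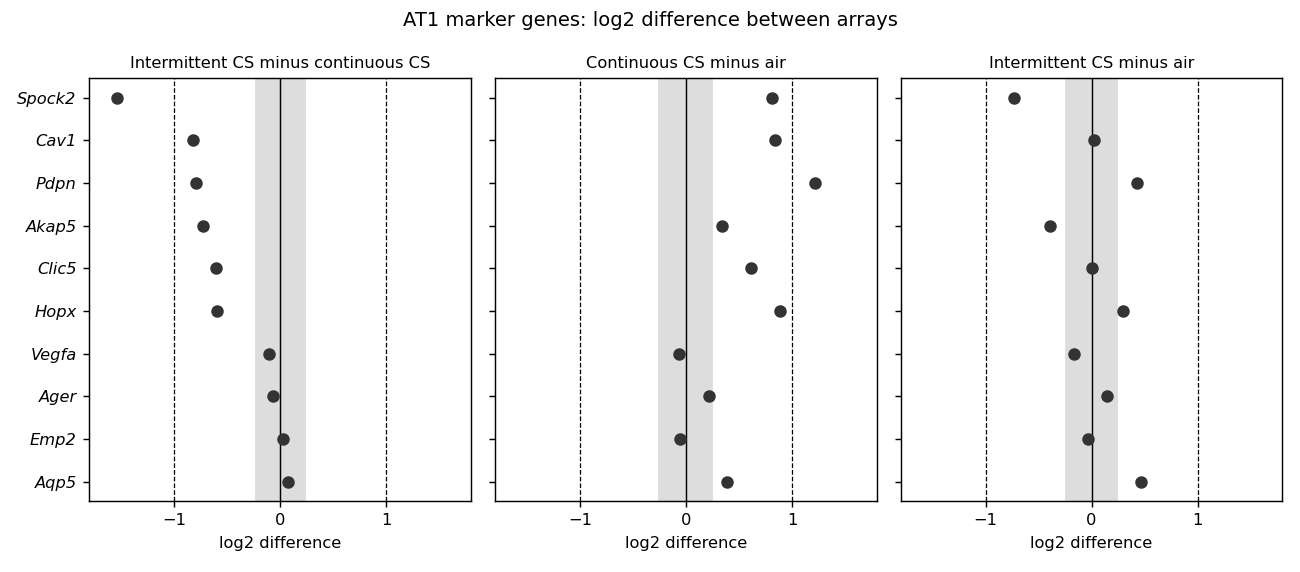
Log2 difference of each AT1 marker gene between pairs of arrays (points: single genes, 1 array per exposure). Dashed lines mark 2-fold and the gray band is 1 standard deviation of the receptor clusters on either side of 0. Between the CS arrays 6 members lie outside the band, all on the lower side, with Spock2 at -1.54.

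Against air, the continuous CS array carried the larger differences. With continuous CS, 8 of the 10 members were higher than with air, beside 37.6% of all clusters or 49.7% of the 16810 that were not exactly equal, and the median log2 difference was 0.50. At least 2-fold, 1 member (Pdpn) was higher and 0 were lower, beside 1.13% and 0.473% of all clusters. At 1.5-fold, 5 members were higher, namely Pdpn, Hopx, Cav1, Spock2 and Clic5, beside 3.78% of all clusters and 5.69% of those above the background on either array. Clic5 lay just inside this threshold at 1.53-fold, and the next members were Aqp5 at 1.31-fold and Akap5 at 1.26-fold.

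With intermittent CS, the members were spread on both sides of air. The median log2 difference was 0.01, 6 were higher and 4 lower (Clic5, higher by 0.00, was lower by quantile and cyclic loess scaling), and no member was 2-fold higher or lower, beside 0.833% and 0.716% of all clusters. At 1.5-fold Spock2 alone was lower, beside 3.43% of all clusters and 4.73% of those above the background on either array. Aqp5 and Pdpn were 1.38-fold and 1.35-fold higher. Both comparisons with air use the same air array, so a low or high value on it would enter both.

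Ranked over the 3 arrays, 7 of the 10 members were highest with continuous CS, as were 21.3% of all clusters and 22.1% of the 12860 clusters above the background on any array. The exceptions were Aqp5, highest with intermittent CS, and Emp2 and Vegfa, highest with air. For some of these orders neighboring arrays lay within 1 standard deviation of the receptor clusters: both CS arrays for Ager, Aqp5, Emp2 and Vegfa, intermittent CS and air for Ager, Cav1, Clic5, Emp2 and Vegfa, and continuous CS and air for Ager, Emp2 and Vegfa. By the distance between their differences from air and the median pair of the members, the closest named genes were Clp1, Sat2, Ttc12, Vat1 and Cep170, at distances of 0.012 to 0.015. With 3 arrays, genes of many functions can share such a shape.

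**Figure D3:**
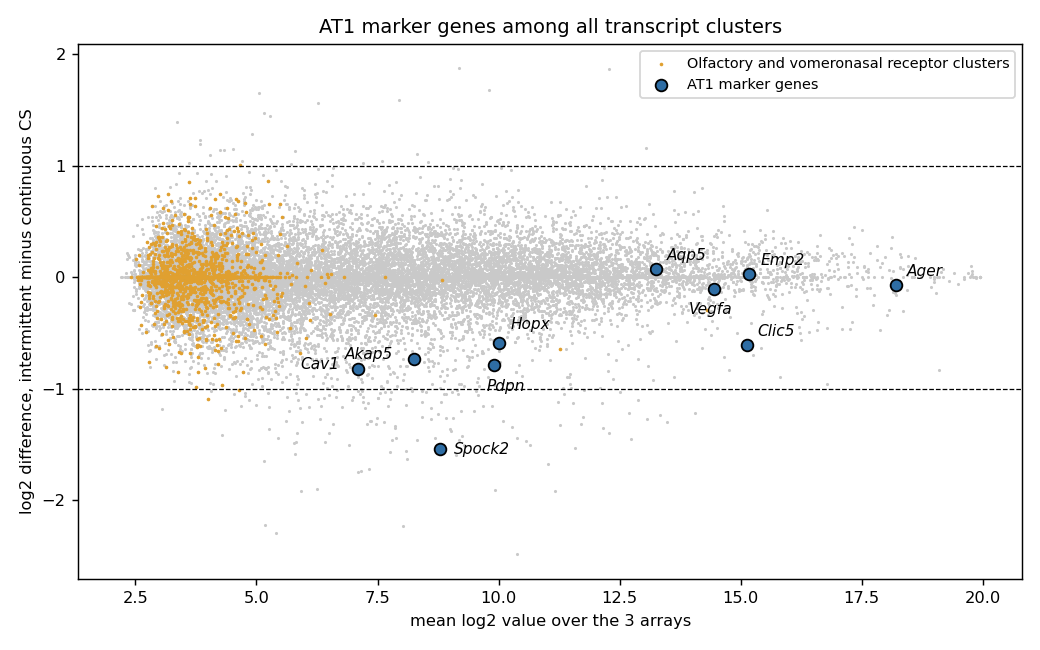
Log2 difference between the CS arrays (vertical) against the mean log2 value over the 3 arrays (horizontal) for all 22206 clusters (gray), the receptor clusters (orange) and the AT1 marker genes (blue). Dashed lines mark 2-fold. Spock2, at -1.54, lies below the line, and Ager, Aqp5, Emp2 and Vegfa lie within 0.11 of 0.

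The members that were level between the CS arrays were those with bright clusters. Their mean log2 values were 13.24 for Aqp5, 14.44 for Vegfa, 15.18 for Emp2 and 18.20 for Ager, while 5 of the 6 others had means of 7.11 to 10.01. Clic5 was the exception, at a mean of 15.13 and 1.52-fold lower with intermittent CS. Over all clusters the standard deviation of the log2 difference between the CS arrays was 0.29 at mean values from 6 to 10. It was 0.25 from 10 to 14, the range of Hopx and Aqp5, and 0.20 from 14 to 19. In these ranges 91 of 6432, 28 of 3294 and 1 of 670 clusters were 2-fold apart. For continuous CS minus air the standard deviation was 0.39, 0.40 and 0.49 in these ranges, with 2.61%, 3.19% and 2.84% of the clusters 2-fold apart. Bright clusters thus did not differ less there. The part of this in the split of the members was not tested.

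A wider list of 31 measured AT1 genes, none of them among the 10, gave a smaller shift. Between the CS arrays 23 were lower, 6 higher and 2 equal with intermittent CS, with a median log2 difference of -0.22. Over all clusters 36.4% were lower in this comparison, and 0.635% were at least 2-fold lower. Sema3e, a guidance protein of the semaphorin family, was the only one of the 31 past 2-fold, at 8.36 on the air array, 9.55 on the continuous and 8.32 on the intermittent CS array. In the same comparison its relative Sema3a was 1.90-fold lower, the follistatin-like gene Fstl3 1.70-fold, the epithelial sodium channel subunit Scnn1g 1.68-fold, the chaperone gene Cryab 1.67-fold and Igfbp2, a marker of mature AT1 cells, 1.58-fold. All 6 were highest on the continuous CS array.

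Other AT1 genes did not have that shape. For continuous CS minus air the median of the 31 was 0.34, and 5 genes were higher by 2-fold or more and 0 lower, beside 1.13% and 0.473% of all clusters. For intermittent CS minus air the median was 0.14. In that comparison 1 gene was higher and 1 lower by that margin, beside 0.833% and 0.716% of all clusters. Gramd2 was higher on both CS arrays than with air, at 10.40, 11.63 and 11.88, and Lmo7, a protein of cell junctions, was at 17.20, 18.12 and 17.96. Itgb6, an integrin subunit that activates TGF-beta, was at 10.57, 9.77 and 9.32, so that both CS arrays were below air. The tight junction gene Cldn18, shared by AT1 and AT2 cells, held the same value of 18.73 on all 3 arrays. Values identical on all 3 arrays were held by 3027 of the 22206 clusters, and how they arose was not tested.

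Genes that direct the AT1 program were within 2-fold in every comparison. They were 12 transcription factors and cofactors, with a median log2 difference of 0.00, intermittent minus continuous CS. Yap1, which transmits stretch signals in AT1 cells, was at 9.71 on all 3 arrays, and its DNA-binding partner Tead1 at 11.24, both among the identical values. Nkx2-1, the lung lineage factor, was between 12.18 and 12.23. Foxa2 was at 11.92, 11.27 and 11.72, 1.57-fold below air with continuous CS, and Foxa1 at 11.12, 10.58 and 10.62. With continuous CS, 4 of the 12 were equal to air. Of those that differed, 6 were lower and 2 higher. Of the 16810 clusters that were not exactly equal in this comparison, 50.3% were lower and 49.7% higher. Tead2 and Tead4 lay below the background on all arrays. The 14 measured targets of YAP and TAZ had a median of -0.16, and 1 of them passed 2-fold, on the lower side, beside 0.635% of all clusters. This was Nt5e, a surface enzyme that makes adenosine, which lay below the background with air and intermittent CS, at 4.71 and 4.85, and at 6.22 with continuous CS, so that continuous CS was at least 2.12-fold higher than intermittent CS, taken against the background of the intermittent array. Ccn1, an early target, was at 12.85, 13.51 and 13.01.

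Genes of the transitional state, which AT2 cells pass through on the way to AT1 cells, had medians near 0, but some lay at least 2-fold from air. Over 15 measured genes, 2 of which (Itgb6 and Krt19) are also in the wider AT1 list, the median log2 difference was 0.00 for intermittent minus continuous CS and -0.05 for continuous CS minus air. The cell cycle inhibitor Cdkn1a was at 13.36 with air, 11.66 on the continuous and 11.44 on the intermittent CS array. The keratin Krt8 was at 12.27, 11.34 and 11.37, so that both were lower on the CS arrays. With continuous CS, 2 of the 15 (Cdkn1a and Sfn) were at least 2-fold below air and 1 (Plaur) above. Over all clusters these shares were 0.473% and 1.13%. With intermittent CS, 3 (Cdkn1a, Sfn and Itgb6) were that far below air and 0 above, beside 0.716% and 0.833% of all clusters. Sfn was 2.49-fold below air with continuous CS and 3.24-fold with intermittent CS. Plaur, the urokinase receptor, which leukocytes also carry, was at 7.22, 8.86 and 7.53 and was the only one of the 15 past 2-fold between the smoke exposures. The 21 AT2 markers had a median of 0.01 for intermittent minus continuous CS, all within 2-fold, and a median of 0.00 against air for either CS array. Against air, 1 marker (Hc) was at least 2-fold lower with continuous CS and 0 were higher, beside 0.473% and 1.13% of all clusters. Hc was at 17.54, 16.41 and 16.66, and with intermittent CS 0 markers were 2-fold from air. Of these 21, 6 were at the ceiling on all arrays and could not show a rise. The 15 others had medians of 0.03 between the CS arrays and 0.00 against air. Among those 15, Lamp3, Scd1, Cxcl15 and Muc1 lay just below the ceiling, at 19.74 to 19.87, with little room to rise. Dlk1 was below the background on every array.

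**Figure D4:**
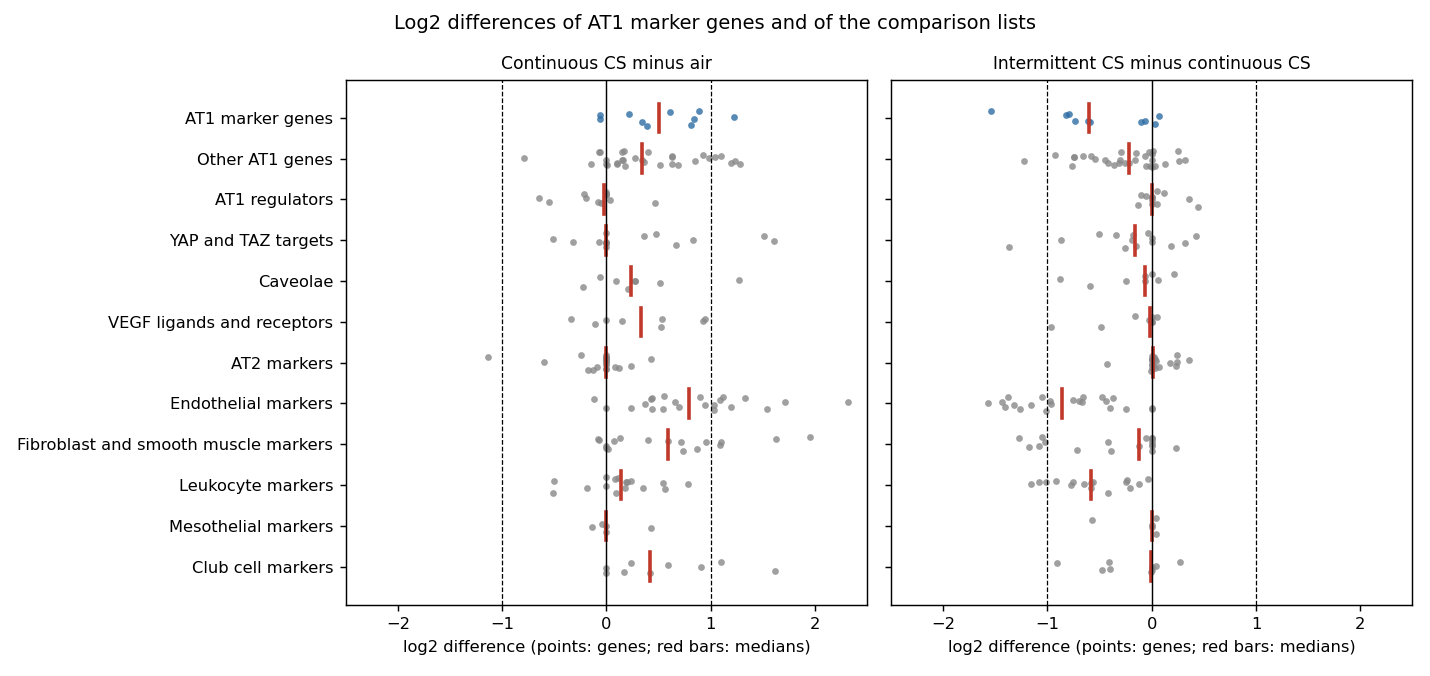
Log2 differences of single genes (points, horizontal axis) in the AT1 marker list and in the comparison lists (rows), in the comparisons of continuous CS with air (left) and of both smoke exposures (right, intermittent minus continuous). Red bars are list medians and dashed lines mark 2-fold. The AT1 marker median is 0.50 on the left and -0.60 on the right, beside 0.80 and -0.86 for the endothelial and 0.14 and -0.58 for the leukocyte markers. The AT2 list, at 0.00 and 0.01, holds 6 genes fixed at the ceiling and others just below it.

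Markers of endothelial cells, which the gate should leave out, were also highest with continuous CS. Of 22 measured endothelial markers 20 were lower on the intermittent than on the continuous CS array, 9 of them by 2-fold or more, 0 were higher and 2 equal, and the median was -0.86. Against air their median was 0.80 with continuous CS and -0.02 with intermittent CS, and their mean log2 value was 8.11, 8.95 and 8.12 on the air, continuous CS and intermittent CS arrays. The mean of the 10 AT1 markers was 11.85, 12.37 and 11.85 in the same order. The 4 endothelial markers with the widest differences between the CS arrays were the transcription factor Erg (2.97-fold), the endothelin receptor Ednrb (2.71-fold), and Calcrl (2.64-fold) and Ramp2 (2.60-fold), which together form the adrenomedullin receptor. The endothelial cadherin Cdh5 was at 11.28, 12.60 and 11.34, and 21 of the 22 markers lay above the background on all 3 arrays. Summed on the linear scale, the endothelial list came to 15203, 31650 and 14379 array units.

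Leukocyte and mesenchymal markers were present as well, 13 of 16 and 13 of 17 above the background on all 3 arrays. All 16 leukocyte markers were lower on the intermittent than on the continuous CS array, with a median of -0.58. The tetraspanin Cd53 (2.23-fold), the integrin subunit Itgb2 (2.11-fold) and the Fc receptor chain Fcer1g (2.03-fold) passed 2-fold. The mean log2 value of the 16 was 8.70, 8.83 and 8.25. Against air the leukocyte median was 0.14 with continuous CS and -0.58 with intermittent CS. Of 17 fibroblast and smooth muscle markers 10 were lower on the intermittent CS array, 5 of them past 2-fold, 6 were equal and 1 was higher, and the median was -0.13, or -0.42 over the 13 above the background, with mean values of 7.26, 7.86 and 7.44 over all 17. The widest were the filament gene Vim (2.42-fold), smooth muscle actin Acta2 (2.26-fold), fibronectin Fn1 (2.12-fold) and Inmt (2.07-fold). Beside the leukocyte and fibroblast counts, 36.4% of all clusters were lower with intermittent than with continuous CS, and 0.635% were at least 2-fold lower. The part of these cell types in the values of Cav1, Clic5, Pdpn and the other AT1 markers was not tested. Without Cav1, Clic5, Pdpn and Vegfa, which other lung cells are also known to express, the median of the remaining 6 AT1 markers was -0.33 between the CS arrays and 0.36 for continuous CS minus air.

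Markers of mesothelium and lymphatic endothelium, other sources of Pdpn, and of airway cells were mixed. Of 5 measured mesothelial markers, 4, Msln and Wt1 among them, lay below the background on every array. Of 7 lymphatic markers 3 did so, the lineage factor Prox1 among them, while the hyaluronan receptor Lyve1, which macrophages also carry, was at 8.76, 10.50 and 9.53 on the arrays in the usual order. Over the 7 club cell markers above the background the median was -0.40 between the CS arrays and 0.59 for continuous CS minus air. Among these 7, Cbr2 was at the ceiling on all arrays and Scgb1a1 held the same value of 19.61 on all arrays. Over the 6 ciliated cell markers above the background the medians were -0.25 between the CS arrays and 0.13 for continuous CS minus air. Sec14l3, among these 6, is also in the wider AT1 list.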

How the data were processed

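AT2 cells of 3 mice per exposure were pooled for 1 Clariom S array each. The authors summarized the scans in the Transcriptome Analysis Console, and the deposited table holds log2 values per cluster. The sources used here do not give its version, summarization or normalization. Values were used as deposited, with symbols from the platform annotation (19572 of 22206 clusters). Log2 differences carry no test, since each exposure has 1 array. The background is the 95th percentile of 1414 receptor clusters, and a gene below it on one array has only a bound there.

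The members and the 20 comparison lists were chosen with earlier results of these data known. The text names all 10 members, list genes 2-fold apart between the CS arrays (the 4 widest per list) and the 5 genes nearest in pattern. Cdh5, the other list genes named, the motifs and the 4 promoters were chosen after their values were seen.

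Alternatives were median centring, quantile and cyclic loess scaling, the background as a floor, an offset of 32 on the linear scale, 1.5-fold and 3-fold thresholds, means over clusters or members, and 6 members only. Only the calling of 2-fold differences between arrays was tested on simulated data, which had an even spread and no tied values. The other steps were not tested in that way. Python 3.11.15 (numpy 2.4.6, pandas 2.3.3, matplotlib 3.10.9) and limma 3.58.1 in R 4.3.3 were used.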

Additional observations from a re-analysis of the deposited data

Results flagged for a closer look

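Spock2 and Akap5 lay on opposite sides of air in the CS groups. Spock2 differed from air by 0.81 on the log2 scale with continuous CS and by -0.73 with intermittent CS, and Akap5 by 0.34 and -0.39. Over all clusters with mean log2 values from 6 to 10, the range of both genes, the standard deviation of the difference from air was 0.39 for either CS array, about the size of the differences of Akap5. Each difference rests on 1 array per exposure and the same air array, and the difference between the CS groups was not tested.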

How the results depend on the processing

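Under the 7 alternatives that give values of single members, no member's difference moved by more than 0.15 on the log2 scale, or 0.09 under the 3 scalings. No difference of 2-fold or more changed sign. Among those near 0, Emp2 changed sign between the CS arrays under quantile normalization (0.03 to -0.00), and so did Clic5 for intermittent CS minus air (0.00 to -0.07, and to -0.03 by cyclic loess). The choice of threshold changed the counts most. At 1.5-fold, 6 members in place of 1 were lower with intermittent than with continuous CS, 5 in place of 1 lay above air with continuous CS, and 1 in place of 0 lay below air with intermittent CS. At 3-fold, 0 members were lower with intermittent than with continuous CS and 0 lay above air with continuous CS. Without Cav1, Clic5, Pdpn and Vegfa the median between the CS arrays was -0.33 in place of -0.60, and 0 in place of 1 member was 2-fold above air with continuous CS, since Pdpn was left out. The median for intermittent CS minus air stayed between -0.02 and 0.06. Averaging clusters changed nothing, as each member has 1, and neither did the background as a floor. Leaving out a replicate was not possible with 1 array per exposure. No paired analysis was possible because each exposure has 1 sample.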
